A study of Mus musculus with 2 samples.

Results

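The miR-183, miR-96 and miR-182 cluster was examined in mouse embryonic stem cells in which Dicer had been knocked out. Its members were chosen by name from the deposited table of mature microRNAs (miRNAs): both arms of miR-183, miR-96 and miR-182, which is 6 of the 1907 entries listed. The 5p arm is the strand on the 5′ side of a precursor hairpin, and the 3p arm is the one opposite. The study profiled small RNA of total RNA from 2 libraries, both from 129/Ola cells labelled E14 and blastocyst-derived, with the genotype Dicer knockout, grown with serum and the cytokine LIF on gelatine. Library 1 and library 2 are named after the numbers in their titles; their descriptions add C1 and H11, without saying whether these are separate clones. Nothing in the labels says that they came from separate cultures, so the spread between them may be technical. There was 1 group of 2 replicates, and cells with Dicer were not analysed here, so each level describes knockout cells alone.

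In the usual route to a miRNA, the nuclease Drosha cuts a hairpin out of a primary transcript, and Dicer then cuts off the loop and releases the 2 arms as a duplex. An Argonaute protein keeps 1 of them, and the seed near its 5′ end pairs with target mRNAs. The 3 miRNAs of this cluster are known to come from 1 primary transcript, to have related seeds, and to be abundant in sensory cells of the retina, the inner ear and the sensory ganglia. Mutation of the miR-96 seed is known to cause hearing loss.

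The 3 hairpins lie on the minus strand of mouse chromosome 6 (GRCm38), in the transcribed order Mir183 (30169668 to 30169737), Mir96 (30169446 to 30169551) and Mir182 (30165918 to 30165992). Mir96 starts 116 bases after the end of Mir183, and Mir182 follows 3453 bases further on, so that the 3 hairpins span 3820 bases. No other gene of GENCODE M21 overlaps this span. The nearest annotated genes are Nrf1, 12459 bases beyond Mir182, and Rncr4, a long non-coding RNA on the other strand, 3155 bases beyond Mir183.

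The mature sequences from RefSeq (GRCm38.p6) are shown because the seeds tie the 3 miRNAs together while their abundance does not. Capitals mark the seed, bases 2 to 8 from the 5′ end.
mmu-miR-183-5p: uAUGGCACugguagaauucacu
mmu-miR-96-5p: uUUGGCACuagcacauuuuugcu
mmu-miR-182-5p: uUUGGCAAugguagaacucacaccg
mmu-miR-183-3p: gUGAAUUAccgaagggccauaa
mmu-miR-96-3p: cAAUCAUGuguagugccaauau
mmu-miR-182-3p: gUGGUUCUagacuugccaacu

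All 3 of the 5p arms start with U and hold UGGCA at bases 3 to 7. Among the 1623 listed miRNAs that matched a RefSeq sequence by name, 4 (0.246%) had UGGCA at that place; the fourth was miR-7022-5p, which had no count in either library. Counted from the 5′ end, the seeds of miR-182-5p and miR-96-5p differ by A8C, those of miR-183-5p and miR-96-5p by A2U, and those of miR-182-5p and miR-183-5p by U2A and A8C. No other matched miRNA has the seed of any of these 5p arms. Beyond the seed the pairs part ways. Set side by side from the first base, miR-182-5p and miR-183-5p are identical at 18 of 22 positions and share the run UGGUAGAA, which only these 2 of the 1623 sequences hold. With miR-96-5p, miR-182-5p is identical at 12 of 23 positions and miR-183-5p at 13 of 22. The 3p arms are less alike, with 7 identical positions in each of the 3 pairs, of 21 or 22 compared.

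No other matched miRNA came within 3 edits of any member. Each member's sequence occurred in 1 gene only of GENCODE M21, its own hairpin, when 141767 transcripts were searched on both strands. The genome outside annotated transcripts was not searched.

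The hairpins are shown with their annotated arms in capitals, because the arms differ so much in abundance.
Mir183: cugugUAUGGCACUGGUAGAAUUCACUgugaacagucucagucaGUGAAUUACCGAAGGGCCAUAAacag
Mir96: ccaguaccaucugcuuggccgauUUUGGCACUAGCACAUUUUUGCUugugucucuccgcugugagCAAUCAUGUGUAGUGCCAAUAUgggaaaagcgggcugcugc
Mir182: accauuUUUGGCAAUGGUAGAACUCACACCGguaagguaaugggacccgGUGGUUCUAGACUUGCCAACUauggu

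The annotated hairpin of miR-96 is longer than the 70 bases of Mir183 and the 75 of Mir182, but the part between its outer arm ends is not. From the first base of the 5p arm to the last of the 3p arm, Mir183 measures 61 bases, and Mir96 and Mir182 measure 64 each. Between the arms lie 17 bases in Mir183, 19 in Mir96 and 18 in Mir182.

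The counts on listed miRNAs were few: 45222 in library 1 and 37476 in library 2. These totals, called depth here, are not the numbers of reads sequenced. One count is therefore worth 22.1 CPM, the count scaled to a table total of 1000000, in library 1 and 26.7 in library 2, and a miRNA without a count could still make up 0.00663% or 0.00801% of the library. Intervals on shares are 95% Wilson intervals and those on ratios of counts are exact binomial ones. Both cover counting error only, as reads without molecular identifiers may be copies of each other. Dicer mRNA is not in a miRNA table, so the knockout itself was not checked. As a check of the cell type, 14 of 22 listed arms of the embryonic stem cell list (miR-290 cluster, miR-302 and miR-367) had a count, 3.58% of library 1 and 3.20% of library 2; within it the arms of miR-302 and miR-367 were at or near 0. The muscle and liver lists were at 0 in both libraries, and the fibroblast, neural, blood and endothelial lists held 0.00221% to 0.0747% of a library. The epithelial list held more, 0.573% of library 1 and 0.619% of library 2, most of it miR-205-5p.

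The cluster was one of the main sources of miRNA counts in both libraries. Its 6 arms together reached 5231 counts, 11.6% (11.3 to 11.9), in library 1. In library 2 they reached 3098 counts, 8.27% (7.99 to 8.55), which makes the mean 9.92% ± 2.33 (SD, n = 2). Of the counts of the 843 entries with miRBase numbers of 1000 or below, which leaves out the abundant late-numbered entries, the cluster made up 45.0% in library 1 (44.1 to 45.9) and 39.8% in library 2 (38.7 to 40.9). Of all counts on 5p arms of the 776 hairpins listed with both arms, the cluster held 52.7% in library 1 (51.7 to 53.7) and 49.8% in library 2 (48.6 to 51.1). Of their 3p counts it held 5.56% (4.66 to 6.64) and 3.44% (2.69 to 4.39). It thus made up a far larger part of the 5p than of the 3p counts.

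For mmu-miR-182-5p the 2 libraries gave 3539 and 2137 counts, which is 78258 and 57023 CPM. It ranked 5 in library 1 and 6 in library 2 among all entries, and 1 in both among the entries numbered 1000 or below. For mmu-miR-183-5p they gave 1573 and 897 counts, 34784 and 23935 CPM, and ranked 7 and 8, or 2 in both libraries among the low-numbered entries. These 2 arms, known for their role in photoreceptors and other sensory cells, held nearly all counts of the cluster.

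The third 5p arm was close to the detection limit. For mmu-miR-96-5p there were 4 and 2 counts, 88.5 and 53.4 CPM, which is 0.00885% of library 1 (0.00344 to 0.0227) and 0.00534% of library 2 (0.00146 to 0.0195). By mean CPM it ranked 177 among all entries, many of which are tied there. Both counts are too few to place it against other low miRNAs.

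The 3p arms, which are usually taken as the strands not kept by Argonaute in this cluster, were low but present. The arm mmu-miR-183-3p was seen with 63 and 35 counts, or 1393 and 934 CPM. The arm mmu-miR-182-3p was seen with 50 and 26 counts, or 1106 and 694 CPM. The arm mmu-miR-96-3p was seen with 2 and 1, or 44.2 and 26.7 CPM. The order of the 6 members was the same in both libraries, from miR-182-5p and miR-183-5p through miR-183-3p, miR-182-3p and miR-96-5p to miR-96-3p. The neighbours miR-183-3p and miR-182-3p, and miR-96-5p and miR-96-3p, had overlapping intervals within each library, so their order is not resolved.

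**Figure D1:**
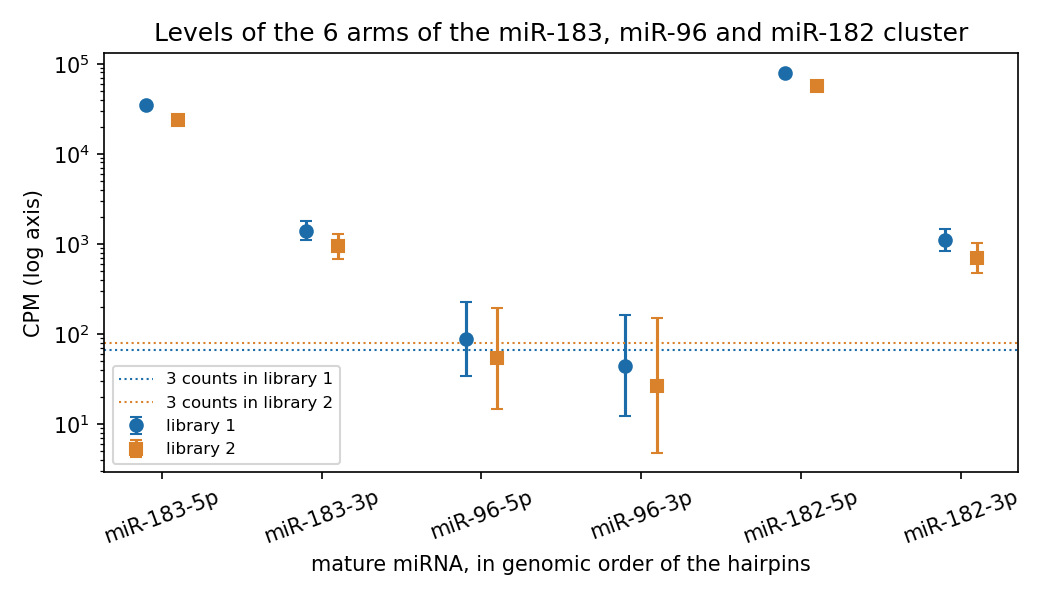
The CPM of each of the 6 arms is plotted on a log axis, as circles for library 1 and squares for library 2, with 95% Wilson intervals of counting error and dotted lines at the CPM of 3 counts. The 5p arms of miR-183 and miR-182 lie at 23935 CPM or more, their 3p arms between 694 and 1393 CPM, and both arms of miR-96 at or below 88.5 CPM.

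The proportions of the 3 hairpins were close to each other in the 2 libraries. This comparison does not depend on how the libraries are scaled. With both arms added, miR-182 made up 68.6% of the counts of the cluster in library 1 (67.3 to 69.9) and 69.8% in library 2 (68.2 to 71.4); their mean was 69.2% ± 0.855 (SD, n = 2). The hairpin miR-183 made up 31.3% (30.0 to 32.5) and 30.1% (28.5 to 31.7); their mean was 30.7% ± 0.842 (SD, n = 2). The intervals of the libraries overlapped for both hairpins.

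The hairpin miR-96 had 6 of 5231 counts of the cluster in library 1, or 0.115% (0.0526 to 0.250), and 3 of 3098 in library 2, or 0.0968% (0.0329 to 0.284). Its neighbour miR-183, 116 bases away, had 1636 and 932 counts, which is 273 times as many in library 1 (125.003 to 744) and 311 times as many in library 2 (105.98 to 1509). The hairpin miR-182 had 598 times as many counts as miR-96 in library 1 (275 to 1631) and 721 times as many in library 2 (246 to 3499). The intervals of the 2 libraries overlapped. How much of it lies in the cells and how much in library preparation or counting was not tested.

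**Figure D2:**
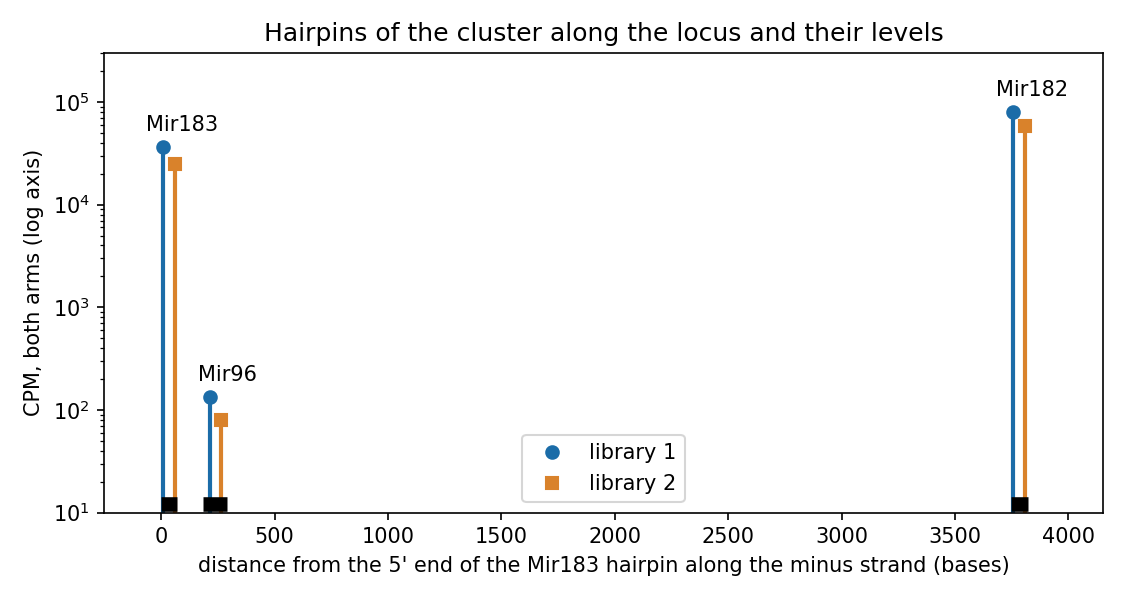
The 3 hairpins are drawn as black bars at their distance in bases from the 5′ end of Mir183 along the minus strand, with the CPM of both arms together on a log axis as a circle for library 1 and a square for library 2. Mir96 lies 116 bases from Mir183 and has the lowest level of the 3 in both libraries.

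Other close neighbours were listed, after these values were seen, to give the gap a scale. Among 623 hairpins with a RefSeq position, both arms listed and a name found at 1 place only, 6 neighbouring pairs on the same strand lay less than 1000 bases apart and had at least 100 counts in either library for the higher hairpin. The pair of miR-183 and miR-96 had the largest ratio of summed counts, 285 (2568 against 9). The other 5 pairs were all from the miR-290 cluster, and their ratios ran from 1.39 to 21.2. The hairpin miR-291a of that cluster, with 120 and 90 counts, was in none of these pairs. They are thus neighbours among the hairpins used, and the range does not cover the whole cluster. So few pairs, from 1 other locus, describe the range seen here and carry no test.

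The 5p arms dominated both abundant hairpins, to nearly the same degree in the 2 libraries. Of the counts of miR-182, 98.6% were on the 5p arm in library 1 (98.2 to 98.9) and 98.8% in library 2 (98.2 to 99.2); the mean was 98.7% ± 0.135 (SD, n = 2). Of those of miR-183, 96.1% (95.1 to 97.0) and 96.2% (94.8 to 97.3) were; the mean was 96.2% ± 0.0675 (SD, n = 2). As ratios, miR-182 had 70.8 counts on its 5p arm for each 3p count in library 1 (53.6 to 95.5) and 82.2 in library 2 (55.9 to 126.1). The hairpin miR-183 had 24.97 (19.4 to 32.7) and 25.6 (18.3 to 37.0). The intervals of the 2 hairpins were apart in each library. For miR-96, with 4 and 2 counts on the 5p arm against 2 and 1 on the 3p arm, the ratio of these counts was 2 in each library, with exact intervals of 0.287 to 22.1 and 0.104 to 118; this depth does not show which arm was higher.

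The same counts, read across the hairpins, restate this difference: the ratio of miR-182 to miR-183 was not the same on the 2 arms. On the 5p arms miR-182 had 2.25 times the counts of miR-183 in library 1 (2.12 to 2.39) and 2.38 times in library 2 (2.20 to 2.58). On the 3p arms the ratio was 0.794 (0.536 to 1.17) and 0.743 (0.429 to 1.27), with intervals that include 1. The excess of miR-182 over miR-183 was thus seen on the 5p arms. On the 3p arms the intervals lay below those of the 5p arms in each library, so an excess of that size was not present there. Which of the 2 was higher on the 3p arms is not resolved at this depth.

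Between the libraries the 5p shares of these hairpins did not differ detectably. Fisher's exact test of 5p against 3p counts, two-sided, was run on the 58 hairpins that reached 10 counts in both libraries, and 3 of them, 5.17%, passed an adjusted p of 0.05 (Benjamini-Hochberg over all 58). Neither miR-182 (Fisher's exact test, adjusted p = 1) nor miR-183 (adjusted p = 1, same exact test) was among them; miR-96 had too few counts to enter. This test and the next set 2 libraries against each other and say nothing of conditions.

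Set against other abundant hairpins, the cluster had the higher 5p share in both libraries. Its 97.8% in library 1 and 98.0% in library 2 compare with 84.2% and 86.2% for miR-21a, a miRNA known as a growth-promoting factor in many cell types. They compare with 72.4% and 64.4% for the 9 hairpins of the miR-290 cluster, the main miRNAs of mouse embryonic stem cells. For the 13 hairpins of the miR-17-92 cluster and its paralogs, known for promoting proliferation, the 5p share was 23.8% in each library. That pooled value rests on miR-92a, which alone had 288 of the 340 counts on 3p arms in library 1 and 235 of 298 in library 2; without it the share was 65.6% (57.7 to 72.7) and 55.3% (47.1 to 63.3). The miR-290 hairpins were not alike either, with mean 5p shares from 8.93% for miR-290a to 92.6% for miR-293 among those with at least 50 counts in both libraries. The differences were 13.6 and 11.8 percentage points from miR-21a, 25.4 and 33.6 from the miR-290 cluster, and 74.0 and 74.2 from the miR-17-92 set, or 32.2 and 42.7 from that set without miR-92a, a choice made after the values were seen. In all 6 comparisons, 3 in each library, Fisher's exact test on the summed counts passed, with a largest adjusted p of 1.76e-31 (two-sided, Benjamini-Hochberg over the 6). These p-values rest on reads of 1 library each. Where hairpins are pooled, they take no account of the spread between hairpins. The mean difference had the same direction for each of the 3 sets when miR-182 was left out, at 10.9, 27.7 and 72.3 points.

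High 5p shares were not limited to the cluster. Of 19 hairpins that reached 50 counts in both libraries, miR-182 ranked 2 and miR-183 ranked 3 by mean 5p share. These ranks depend on that minimum, as hairpins with fewer counts lay on both sides of the members. The 5p share of miR-532 was 100% in both libraries (57 and 47 counts), and that of miR-22 was 2.86% and 0%. Among the 19, the 3 hairpins outside the cluster nearest to its mean were miR-669a, miR-26a and miR-205. The hairpin miR-669a, of a large repeated family in an intron of Sfmbt2, had 300 and 156 counts on the 5p arm and 0 on the 3p arm; its reads may be shared with near-identical copies. The hairpin miR-26a had 69 counts on the 5p arm and 6 on the 3p arm in library 1, and 57 and 1 in library 2. The 5p shares of miR-205, a miRNA of epithelia, were 95.98% and 93.7%. In library 1 the interval of miR-205 (92.8 to 97.8) held the value of miR-183.

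**Figure D3:**
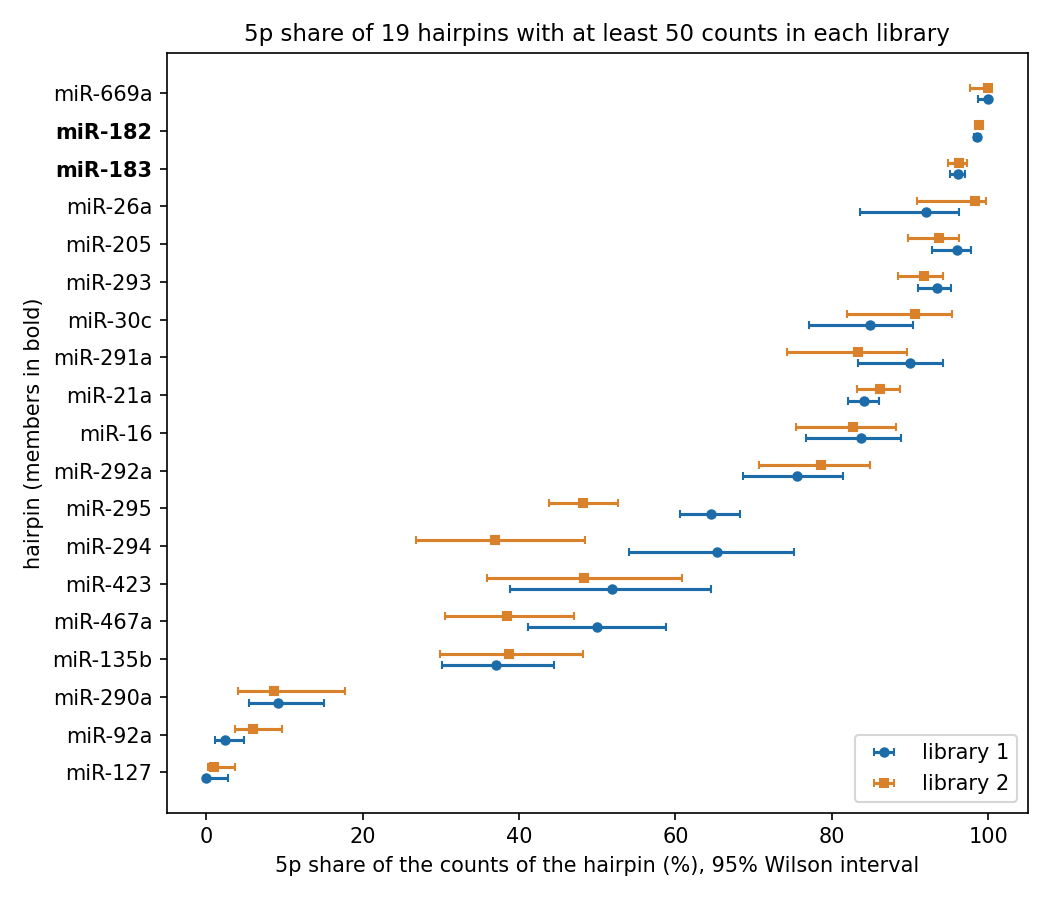
The share of counts on the 5p arm, in percent, is plotted for the 19 hairpins that reached 50 counts in both libraries, as circles for library 1 and squares for library 2 with 95% Wilson intervals. The members miR-182 and miR-183 (bold) sit near the top with narrow intervals, at 98.7% and 96.2% on average, while miR-295 and miR-294 differ between the libraries.

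The abundant arms of the cluster made up less of library 2 than of library 1. Each count was tested against the rest of its library with Fisher's exact test, two-sided, over the 129 miRNAs whose counts summed to 10 or more, which 4 of the 6 members reached. A call needed an adjusted p below 0.05 and at least a 2-fold difference in CPM; 10 of the 129, 7.75%, passed, and 0 of the 4 members did. Without the fold minimum, 13 of the 129, 10.1%, passed with a lower share in library 2, and miR-182-5p and miR-183-5p were 2 of them. By summed counts miR-182-5p lay above 96.1% of the 129 and miR-183-5p above 94.6%. Smaller differences can pass at such counts, so the 10.1% is not a background matched for counts.

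The arm miR-183-5p had a log2 ratio of library 2 to library 1 of -0.54 (-0.66 to -0.42; Fisher's exact test, adjusted p = 6.93e-19). For miR-182-5p it was -0.46 (-0.53 to -0.38; Fisher's exact test, adjusted p = 2.87e-32). Both differences were below 2-fold. The 3p arms had ratios in the same range without passing: -0.58 (-1.22 to 0.04) for miR-183-3p and -0.67 (-1.42 to 0.04) for miR-182-3p, with adjusted p of 0.222 and 0.219 (Fisher's exact test). For miR-96-5p and miR-96-3p the ratio of the counts as they are was -0.73, with intervals from -4.20 to 2.07 and from -6.61 to 3.53, which says nothing about direction. All 4 members tested were lower in library 2, with a median of -0.56, beside 70 of all 129 miRNAs, with a median of -0.05.

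The size of this difference depended on the scale. The entries numbered above 1000 made up 33598 counts of library 1 and 29692 of library 2, and when they were left out of the total every ratio rose by 0.31. On that scale the cluster total stood at -0.18 in place of -0.48, miR-182-5p at -0.15 (Fisher's exact test, adjusted p = 0.000132) and miR-183-5p at -0.23 (adjusted p = 0.000489, same exact test). The cluster itself was 45.0% of that total in library 1 and 39.8% in library 2, so that scale is not independent of the cluster. With the same shift the median of the 129 miRNAs moved from -0.05 to 0.26. The split of all calls without a fold minimum moved from 13 lower and 12 higher in library 2 to 6 lower and 12 higher among the 112 miRNAs then tested. The direction of the 4 members was the same under all 6 scales. With 1 library on each side the difference has no replicate check.

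**Figure D4:**
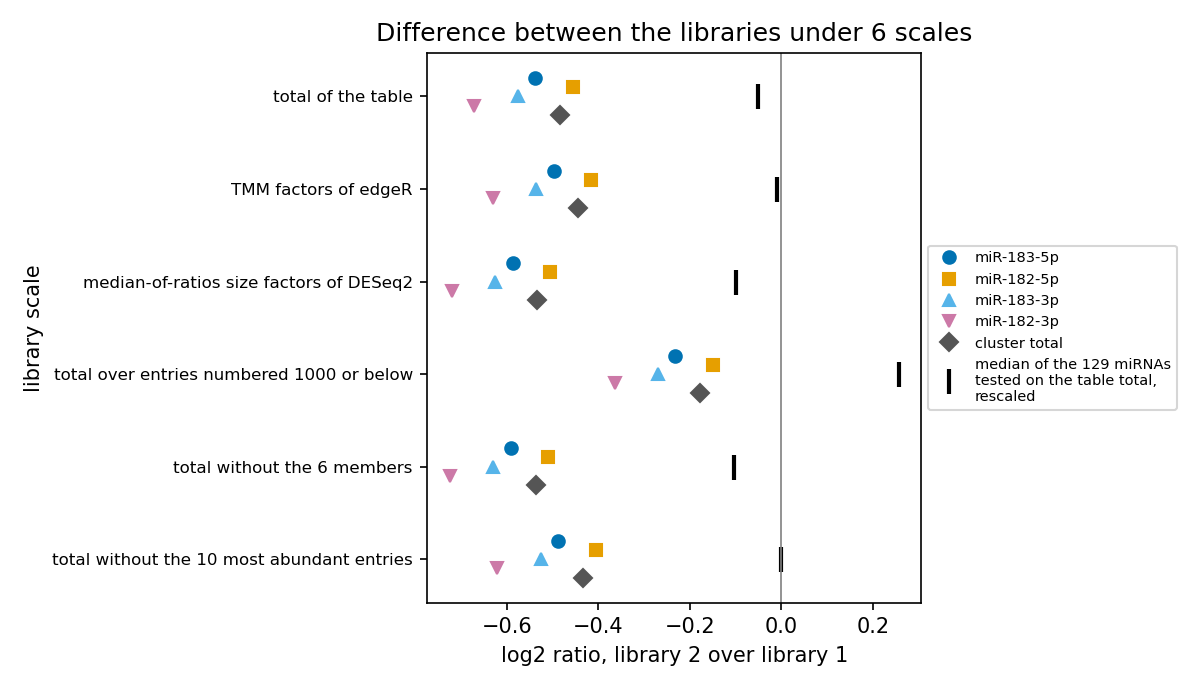
The log2 ratio of library 2 to library 1 is plotted for the 4 members tested and for the cluster total under 6 ways of scaling the libraries, with black ticks for the median of the 129 miRNAs tested on the table total, moved by the shift of each scale. All points lie below 0, and they come nearest to it, at -0.15 for miR-182-5p, on the total over entries numbered 1000 or below. They also lie left of the tick. Each scale moves points and tick by the same amount, so this distance is 1 observation and not a check under 6 scales.

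Among the 32 other miRNAs whose counts summed to 100 or more, the 3 whose ratio was nearest to that of the cluster total were miR-135b-3p (107 and 65 counts, -0.45), miR-295-5p (382 and 234 counts, -0.44) and miR-30a-5p (71 and 45 counts, -0.39). Likeness over 2 libraries is a single ratio, so it places these miRNAs beside the cluster and no more.

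Other miRNAs known from sensory, neural and epithelial tissue were much scarcer. A list of 16 such miRNAs, among them miR-204 and miR-211 of the retinal pigment epithelium, miR-124 and miR-9 of neurons and the miR-200 family of epithelia, covered 36 entries of the table, of which 19 had a count. Their counts summed to 395 and 351, or 0.873% and 0.937% of the libraries. Most of these came from miR-205-5p (239 and 209 counts) and miR-26a-5p (69 and 57 counts). The eye miRNA miR-211-5p was seen 1 time, in library 1, and miR-204 had none. Of the 6 arms of this list that could be tested, 1 had an adjusted p below 0.05 (Fisher's exact test) and was higher in library 2, beside 12 of all 129 miRNAs tested (9.3%), and their median log2 ratio was 0.11. The cluster total stood at -0.48 on the same scale.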

How the data were processed

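Total RNA of both samples went into TruSeq small RNA libraries, per the labels' protocols, which were read on a HiSeq2000 instrument. The deposited table holds raw counts per mature miRNA, 1 column for each of the 2 libraries, matched by title. Per the submitters' processing notes cutadapt, STAR and featureCounts were used with build mm10; their settings, the miRBase release and the handling of reads with several matches are not given in the sources used here. The table total, not the number of reads, is the depth.

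The members and lists were chosen with earlier results of these data known. Named miRNAs are the members, the 3 most alike in library ratio or arm use, and listed comparison sets. A p-value comes from Fisher's exact test, since 1 library on each side leaves edgeR's quasi-likelihood test no residual degrees of freedom; edgeR 4.0.16 and DESeq2 1.42.0 gave scaling factors only. In the test over 129 miRNAs, counts of 3 or fewer were set to 3 for the log2 ratio; the ratios of miR-96, which did not enter it, use the counts as they are. On simulated 4-fold changes the test recovered 147 of 200, with 9 calls in 1148 unchanged tests. Among miRNAs with at least 50 counts it recovered 87 of 90. The members tested differed by less than 2-fold, so these recoveries do not cover differences of their size. False calls from variation between libraries beyond counting error were not tested. The arm test recovered 50 of 50 shares changed by 40 points. The changed hairpins were drawn only from those with at least 50 counts in each library, not from all 58 tested. The 5p shares of miR-182 and miR-183 differed far less between the libraries, so this recovery does not cover differences of their size. Positions come from RefSeq and GENCODE M21, both of GRCm38, the assembly of mm10; 1623 of 1907 names matched RefSeq sequences. Alternatives in scale, pseudocount, filter, fold minimum, denominators, hairpins and libraries were tried. Analyses used Python 3.11.15, scipy 1.17.1 and R 4.3.3.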

Additional observations from a re-analysis of the deposited data

How the results depend on the processing

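Of 70 values under alternatives that left out no library, 50 were taken as kept, 20 moved and 0 reversed. Kept means the same direction and call, or a move within the spread or, for the ratio of the cluster total, within its interval. A number of calls has none of these and was taken as kept within a set fold range, as from 10 miRNAs to 8 or from 3 hairpins to 2. For the members tested, an added pseudocount could change the ratio but not the call, because the p-value was not recomputed. The mean share of the cluster, 9.92% of all counts, was 14.1% without the most abundant entry, 42.4% of the entries numbered 1000 or below and 47.1% without the 10 most abundant entries outside the cluster, since each removes counts from the denominator. The log2 ratio of the cluster total moved to -0.18 on the total over entries numbered 1000 or below, a total that includes the cluster as a large part. Dropping the fold minimum raised the miRNAs called between the libraries from 10 to 25, and a 4-fold minimum lowered them to 3. The mean 5p share, 97.9%, was 96.1% without miR-182 and 87.2% as an unweighted mean over the 3 hairpins, where miR-96 enters with 6 and 3 counts. The mean difference in 5p share from the miR-17-92 set was 37.5 points without miR-92a, against 74.1 with it. The share of miR-96 in the cluster, 0.106%, was 0.0720% on 5p arms only. Leaving out 1 library in turn gave 8.27% to 11.6% for the share of the cluster and 97.8% to 98.0% for its 5p share. A ratio of 2 libraries has no such value. No paired analysis was possible because both libraries belong to the same group. Low counts limit miR-96 most: its arms had 1 to 4 counts, and 2 of the 6 members could not be tested.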

Other observations

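Among the lists of cell type markers without a member of the cluster, the epithelial one was the largest after the stem cell list, with 259 and 232 counts in libraries 1 and 2, or 0.573% and 0.619%. Of its 12 entries 8 had a count, but miR-205-5p alone gave 239 and 209 of the counts. The other defining members were near 0: miR-200b-3p had 3 and 4 counts, miR-429-3p 3 and 1, and miR-141-3p 0 and 1.

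Arm use differed between the libraries in 3 hairpins outside the cluster (Fisher's exact test, p adjusted over 58 hairpins). The 5p share of miR-295 was 64.5% in library 1 and 48.2% in library 2 (exact test, adjusted p = 5.56e-06), and that of miR-294 was 65.3% and 37.0% (exact test, adjusted p = 0.0182). These are hairpins of the miR-290 cluster. The third was miR-434, with 1 of 17 counts on the 5p arm in library 1 and 15 of 22 in library 2.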
